A study of Mus musculus with 11 samples.

Results

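Of the 36097 features in the deposited table of non-coding RNA from mouse retina, 155 carried an Ensembl gene identifier (one that begins with ENSMUSG), and these 155 are described here. The other 35942 were transcripts assembled from reads, with names that begin with MSTRG. The members were chosen by the form of the name alone, although earlier results of these data were known. The lowest mean of any listed feature was 2.0 normalised counts, so features of lower level could not be members. The study compared retinas at postnatal day 21 in 5 libraries from wild-type and 6 from Nrl-KO mice. Poly(A)-depleted RNA was sequenced in both genotypes, and the labels give no other allele, no agent and no strain. NRL is a basic leucine zipper factor of the Maf family that specifies rods, and photoreceptors that lack it develop as cone-like cells. Replicates carry numbers but no animal names, so a p-value here reflects library-to-library spread, some of which may be technical.

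Retinal tissue of either genotype holds photoreceptors, inner retinal neurons and glia, so a level here is an average over cell types. Fewer cells of a type and less RNA per cell cannot be told apart in these values. Long non-coding RNAs are transcripts without a long open reading frame, and many are spliced like messenger RNAs. Pseudogenes are disabled copies of genes: processed pseudogenes arose from reverse-transcribed mRNA and usually lack introns, while unprocessed ones arose by duplication of a gene. Small nucleolar RNAs (snoRNAs) guide modification of other RNAs and Y RNAs bind the Ro protein. Small RNAs of these kinds are not polyadenylated, whereas many long non-coding RNAs and transcribed pseudogenes are RNA polymerase II products that carry a poly(A) tail.

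Values are DESeq2-normalised counts, which are reads divided by a size factor of the library, and they do not correct for length. The listed features held 3238184 to 4150460 reads in wild-type and 3374221 to 4876429 reads in knockout libraries. The Ensembl-named features held between 952 and 1118 reads per wild-type library, 0.0249% to 0.031% of the total. In knockout libraries they held between 930 and 1178, or 0.0231% to 0.033%. A count of 0 allows up to 3 reads, or 2.28 to 4.11 normalised counts depending on the library, and this limit covers counting error only. Within a genotype, libraries correlated at 0.88 to 0.941 across features, and between genotypes at 0.672 to 0.745, which are descriptions across genes of the log2 values. The label check was MSTRG.28375, a feature on the strand opposite to the Nrl gene and inside it: its normalised count lay between 33.3 and 55.5 in the wild-type libraries, was 0.758 in knockout 5 and 0 in the other knockout libraries. Among tested features that overlapped rod marker genes on either strand, 27 of 38 were lower and 4 higher in knockout, and of those over cone marker genes 17 of 26 were higher and 2 lower. No Ensembl-named feature overlapped a gene of these lists, nor of the bipolar (13 tested features), Müller glia (2), pigment epithelium (10), lens (1), microglia (0) or erythrocyte (0) lists.

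In GENCODE M21, annotated on the same build, 98 members were long non-coding genes (76 lincRNA, 15 antisense and 7 processed transcript), 50 were pseudogenes and 4 were small RNAs. The pseudogenes comprised 31 processed, 14 unprocessed, 4 transcribed unprocessed and 1 transcribed processed ones. One further member, Gm4869, is annotated as protein coding, and 2 identifiers, ENSMUSG00000097465.1 and ENSMUSG00000097376.1, had no entry in that release. Members of the 7 lists of known non-coding RNAs, among them Malat1, Meg3, snoRNAs with a Snord or Snora symbol and miRNAs with a Mir symbol, were absent from the 155: 0 matched.

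Sequences are shown for 3 of the 4 small RNA members, because the small RNAs are the only members of classes that normally lack a poly(A) tail and because their annotated names say little about what they resemble. Sequences are those of the GENCODE M21 transcripts (GRCm38), 5′ to 3′ on the strand of the gene. In Gm24045 the capitals are the longest run shared with Rny1, a Y RNA. In Gm25449 they mark the first ATGATGA and the last CTGA, the C box and D box motifs of box C/D snoRNAs, and in Gm23840 the longest run shared with the miRNA entry Gm25190.
Gm24045: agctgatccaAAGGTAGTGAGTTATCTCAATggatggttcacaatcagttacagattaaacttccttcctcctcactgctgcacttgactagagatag
Gm25449: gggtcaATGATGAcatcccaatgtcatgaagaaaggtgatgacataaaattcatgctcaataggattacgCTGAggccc
Gm23840: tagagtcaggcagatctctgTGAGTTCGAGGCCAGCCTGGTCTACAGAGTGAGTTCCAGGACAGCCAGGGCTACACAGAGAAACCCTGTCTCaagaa

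Gm24045 is a misc_RNA of 98 bases at chr4:114987964-114988061 on the plus strand (mm10), and its bases 11 to 31 equal a run of 21 bases in Rny1. Gm25449 is a snoRNA of 79 bases at chr7:59419323-59419401 on the minus strand, inside the Snhg14 host transcript, and 54 annotated snoRNA genes share at least 1 run of 50 bases with it. Gm23840, of 97 bases, shared 77.1% of its 50-base runs with transcripts of 181 other genes, the largest share with Ankrd40 (52.1%). Its match to Gm25190 is thus not particular to that miRNA entry and does not place it in a miRNA family. These matches describe letters and do not show which locus a read of 50 bases came from.

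In knockout, Gm44340, annotated as a miRNA on chromosome 14, fell and the other small RNAs were not called. Gm44340 lies 14.77 Mb from Nrl on the same chromosome, and the part of sequence carried along with the knockout allele in its values was not tested. Its normalised counts were 11, 16, 13, 22.2 and 12.1 in wild-type 1 to 5, against a lowest of 1.04, a median of 1.94 and a highest of 3.32 in the knockout libraries. Every knockout library lay below every wild-type library. The means were 14.9 ± 4.53 (SD, n = 5) and 1.96 ± 0.761 (SD, n = 6), a log2 difference of -2.42 (SE 0.36, limma adjusted p = 5.44e-06). On reads, 74 in wild-type and 13 in knockout gave a depth-scaled ratio of 7.61 with an exact 95% counting interval of 4.19 to 15. Counting intervals here and below pool the reads of a genotype and leave out library-to-library spread. The assembled feature MSTRG.29060, on the opposite strand with a gap of 396 bp, fell from 745 ± 213 to 13.6 ± 3.94, a log2 difference of -5.67 (limma adjusted p = 5.59e-17). The sources used here do not state whether counting was strand-specific, and the part of that transcript in the values of Gm44340 was not tested. MSTRG.29059, on the same strand as Gm44340 and 869 bp away, held 2.93 ± 1.57 and 3.97 ± 4.37. Opposite-strand neighbours were looked up after the values were seen.

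Gm24045, the Y RNA-like entry, had the highest level per length of all members, 258 normalised counts per exon kilobase against a median of 3.83. Its values in wild-type 1 to 5 were 32.9, 15.1, 18.6, 16.4 and 15.1, and in knockout they ran from 16.7 through a median of 25.2 to 52.5. The groups overlapped, and the difference was 0.54 log2 units (SE 0.29, limma adjusted p = 0.182). Gm25449 came next per length at 104 normalised counts per exon kilobase. Its wild-type mean was 10.1 ± 3.78 and its knockout mean 6.67 ± 4, a log2 difference of -0.69 (limma adjusted p = 0.259). Gm23840 had a mean of 3.49, below the mean of 5 required for the test, with 4.13 ± 1.74 and 2.95 ± 1.41.

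The Ensembl-named features were low in level and long in span. Their mean over the 11 libraries had a median of 3.84 and ran from 2.02 to 60.1 normalised counts, whereas assembled features had a median of 6.46 and reached 362943. Over all libraries a member was supported by 22 to 682 reads, with a median of 43. In all, 90 members were read in all 11 libraries and 12 had no read in 3 or more. Their listed span had a median of 4342 bp (79 to 252095), and that of assembled features 234 bp (100 to 365579). Per listed kilobase the median level was 1.1 normalised counts for members and 26.4 for assembled features. The listed span of a member includes introns, and the median exon length was 1142 bp.

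Most members lay outside coding genes. Of the 155, 144 overlapped no coding gene, 3 overlapped one on the same strand (Cd47, Cracr2a and Gm45783) and 8 one on the opposite strand. The last share is 5.16%, against 31.8% of the tested assembled features. No member overlapped an assembled feature on either strand. The median distance from a member to the nearest coding start was 43557 bp, and 13 members were on the X chromosome. The table's positions matched the annotation for 142 members and differed for 11.

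Of the 153 annotated members, 148 had 2 or more exon blocks in the annotation, including every pseudogene. All 31 processed pseudogenes had 2 or more, a structure found in 9.58% of the 9940 processed pseudogenes of the annotation. The same held for 14 of 14 unprocessed pseudogenes (47.5% of the annotation), 76 of 76 lincRNAs (93.8%) and 15 of 15 antisense genes (92.9%). The 5 members with a single block were the 4 small RNAs and the processed transcript 4930448E22Rik. The sources used here do not state how features were selected for the table.

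Sequence shared with other genes differed by class, which bears on how far a read of 50 bp can be assigned. A member's spliced transcripts were divided into all runs of 50 bases. Each run was sought, in the same orientation, in the transcripts of other annotated genes. Among 98 long non-coding members, 73 shared no run and 2 shared at least 50% of them. With either orientation allowed, the share was higher for some of the 98. It went from 0 to 40.5% for Gm17163 and from 48.3% to 77.8% for Gm13307. Among 50 pseudogenes, 15 shared none, 7 shared at least 50%, and the median share was 10.2%. Gm15429, a processed pseudogene of Aph1a (a subunit gene of gamma-secretase), shared 100% of its runs with it, and Gm43634 shared 98.7% with Cracr2a, the coding gene it overlaps on the same strand. Values of such members are uncertain, since the authors' counting could have split or dropped their reads.

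**Figure D1:**
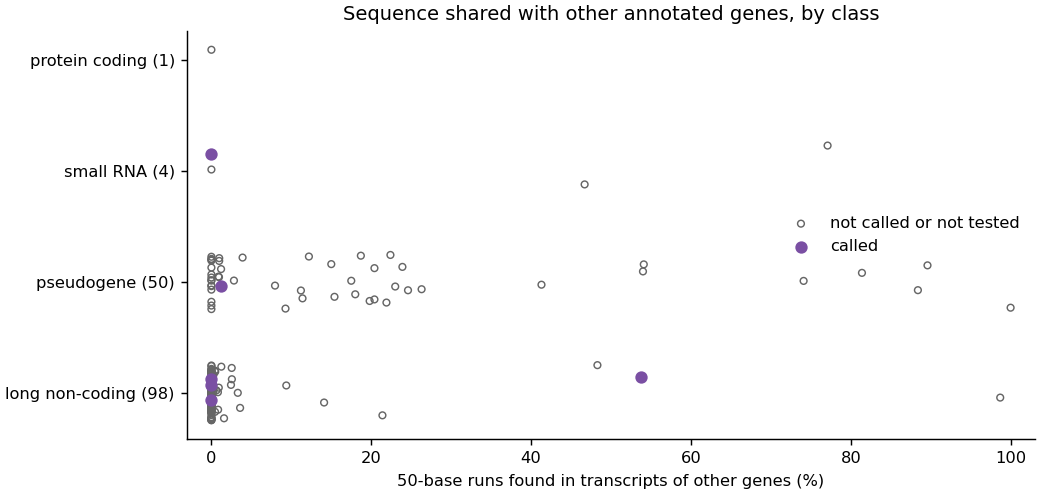
Share of each member's 50-base runs (x axis, %) that also occur, in the same orientation, in transcripts of other annotated genes, by annotated class (y axis, number of members in brackets; vertical scatter within a class has no meaning). Filled points are members called between genotypes; 4930579C12Rik stands at 53.8%, and the other called members with an annotation lie at 0 to 1.22%.

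Members were compared between genotypes with limma on log2(normalised count + 1), fitted over all features with a mean of at least 5. Of the 155 members, 58 passed that filter (37.4%, against 59.4% of assembled features) and 97 did not. Among the 58 tested, 4 rose and 3 fell in knockout at a Benjamini-Hochberg adjusted p below 0.05, and 51 were not called. That is 12.1% of tested members; over all 21395 tested features 28.1% were called, 15.6% as higher and 12.6% as lower. By class, 2 of 35 tested long non-coding members rose and 2 fell, 1 of 18 pseudogenes rose, 1 of 3 small RNAs fell, the coding entry was not called, and the 1 tested member without an annotation entry rose. Groups did not overlap for 6 of the 58 (10.3%), 3 in each direction, against 20.2% of all tested features (11.1% higher and 9.13% lower). In a fit with no filter, 6 of 155 members were called higher and 7 lower (8.39%), against 21.1% of 36097 features (12% higher and 9.12% lower). By the adjusted p of the authors' deposited table, 5 members were higher and 5 lower (6.45%), against 19.4% of features (10.9% higher and 8.48% lower).

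**Figure D2:**
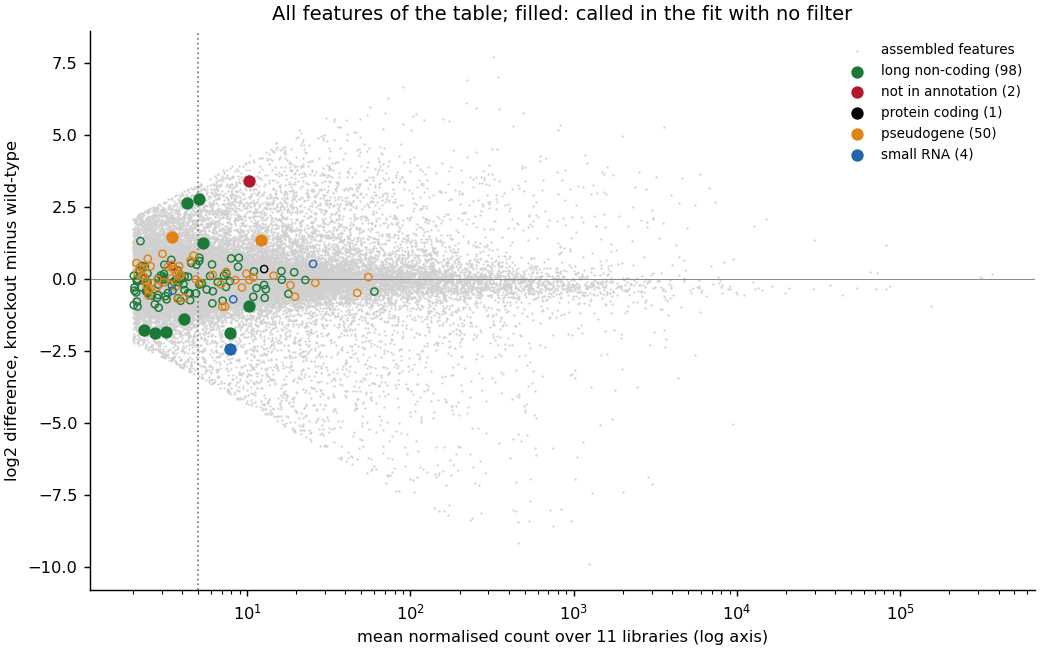
Mean normalised count (x axis, log scale) against the log2 difference between knockout and wild-type (y axis, fit with no filter) for assembled features (grey) and the 155 Ensembl-named features by class (colours, numbers in brackets). Filled symbols mark members called in that fit (13) and the dotted line the mean of 5; the members reach a mean of 60.1.

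Among assembled features the share called increased with level, and the share of members called was the lower one in each range that held members. Among features with a mean of 5 to 10, 12.1% of 33 members were called against 17.9% of 7861 assembled features. At 10 to 20 the values were 15.8% of 19 and 26.7% of 5216. None of 4 members at 20 to 50 and none of 2 at 50 to 100 was called, where 35.2% and 40.3% of assembled features were. Below 5, in the fit with no filter, 6.19% of 97 members and 11.6% of 14605 assembled features were called. With assembled features weighted to the members' distribution over these ranges of the mean, 22.7% of the tested ones were called, and 13.6% of all by the authors' deposited table. No test of the difference between the sets was made, and most ranges hold few members.

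**Figure D3:**
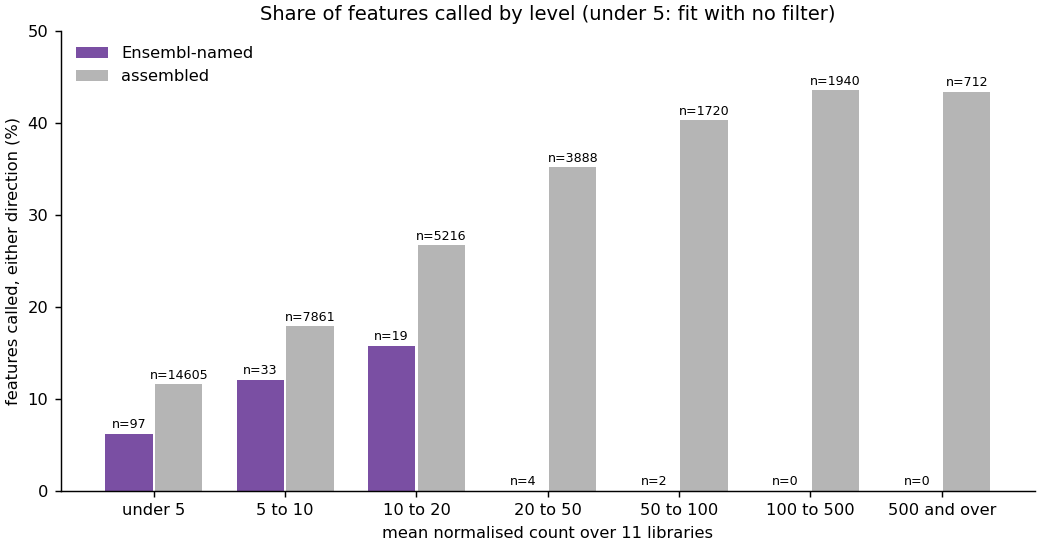
Features called in either direction (y axis, %) by mean normalised count over the 11 libraries (x axis), for Ensembl-named (purple) and assembled features (grey), with the number of features above each bar. The purple bar is lower in every range that holds members, for example 12.1% against 17.9% at a mean of 5 to 10.

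The spread between libraries of a genotype was similar in both sets. Its median SD on the log2 scale was 0.58 for members and 0.65 for assembled features at a mean of 5 to 10, and 0.47 and 0.53 at 10 to 20. The median absolute log2 difference was 0.35 and 0.46 in the lower of these ranges and 0.3 and 0.43 in the upper. Over all tested features it was 0.32 for members and 0.44 for assembled features, and the signed medians were -0.07 and -0.02. The members' signed median was 0.04 without wild-type 1, 0.0 without knockout 6 and -0.13 without knockout 1 or without knockout 2, so its sign rests on single libraries. Of the 58 tested members, 52 differed by less than 1 log2 unit. Among assembled features that overlap no coding gene, 21.8% were called after the same weighting, and among those of 1 kb or longer 43.4%.

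Of the 4 members that rose, ENSMUSG00000097465.1 and Gm42931 had the largest log2 differences. The first was larger in limma, and Gm42931 in the authors' deposited table (4.38 against 3.87). ENSMUSG00000097465.1 lies at chr16:49800533-49804874 on the plus strand and starts at the same base as 1 of 10 annotated transcripts of Cd47. Cd47 encodes the cell-surface protein that binds SIRPα on phagocytes. The normalised counts of ENSMUSG00000097465.1 were 0, 0, 3.71, 0 and 2.02 in wild-type 1 to 5. In knockout the lowest was 11.6, the median 19.9 and the highest 22.2. The groups did not overlap, and 3 wild-type libraries had no read. The means were 1.15 ± 1.68 (SD, n = 5) and 17.9 ± 4.9 (SD, n = 6), a log2 difference of 3.43 (SE 0.44, limma adjusted p = 4.88e-07). The reads were 6 and 116, a depth-scaled ratio of 14.5 with an exact 95% counting interval of 6.45 to 40.2. The whole feature lies inside the Cd47 gene on the same strand, and Cd47 exons cover 661 bp, or 15.2%, of it. In those exons its reads cannot be told apart from spliced Cd47 RNA. Over the rest of the feature they cannot be told apart from unspliced Cd47 RNA.

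Features downstream of it, inside the Cd47 gene (chr16:49800533-49915010), rose as well. On the same strand, MSTRG.35947 rose from 167 ± 35.7 to 375 ± 59.5 with a gap of 2722 bp (log2 difference 1.17, limma adjusted p = 6.27e-06). The opposite-strand feature MSTRG.35949 rose from 3.98 ± 1.63 to 117 ± 31.7 (4.59, limma adjusted p = 1.25e-13). Within 100 kb, 5 of 10 assembled features were called higher in the fit with no filter and none lower, against 12% and 9.12% of all features. The deposited table lists Cd47 among the mRNAs higher in this domain.

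Gm42931, a lincRNA of 3 exon blocks at chr6:35611089-35615669 on the minus strand, was almost unread in wild-type. The values were 1.37, 0, 0, 0.967 and 0 in wild-type 1 to 5 and ran from 4.55 through a median of 9.02 to 12.7 in knockout, with no overlap. The 2 reads in wild-type and 57 in knockout gave a depth-scaled ratio of 21.3 with an exact 95% counting interval of 5.64 to 180. The difference was 2.80 log2 units (SE 0.44, limma adjusted p = 1.15e-05). The nearest coding start, 75781 bp away, is that of Mtpn, which encodes myotrophin.

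Gm8826, a processed pseudogene at chr3:7454521-7455539 on the plus strand, was the called pseudogene. Its values were 2.74, 10.4, 4.64, 6.77 and 5.04 in wild-type 1 to 5, and in knockout they ran from 9.09 through a median of 17.6 to 27.4. Wild-type 2 lay above the lowest knockout libraries. The means were 5.91 ± 2.87 and 17.2 ± 7.53, a log2 difference of 1.38 (SE 0.35, limma adjusted p = 3.18e-03). Within 100 kb, 4 of 7 assembled features were called higher in the fit with no filter and none lower, against 12% and 9.12% of all features. Of those called, only MSTRG.54715 was on the strand of Gm8826.

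4930579C12Rik is a lincRNA of 25 exon blocks spread over chr9:89113111-89177887 on the minus strand. Its values were 2.74, 1.88, 3.71, 1.93 and 2.02 in wild-type 1 to 5 and ran from 4.55 through a median of 7.36 to 13.5 in knockout. The groups did not overlap, though all wild-type values were near the limit that 0 reads allows. The means were 2.46 ± 0.783 and 7.72 ± 3.28, a log2 difference of 1.28 (SE 0.39, limma adjusted p = 0.0129). With DESeq2 on the whole reads of 9 libraries it was not called (adjusted p = 0.0679). It shares 53.8% of its 50-base runs with 4 other genes, 48.8% with Gm2396, so its reads are uncertain. Bcl2a1b, of the BCL2 family of apoptosis regulators, has its start 21322 bp away and is listed by the deposited table as higher in the same domain.

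Gm44717 and Gm32736 fell beside Gm44340. Gm44717, a lincRNA at chr8:11135641-11149246 on the minus strand, held 15.1, 15.1, 9.28, 12.6 and 13.1 in wild-type 1 to 5. Its knockout values ran from 0 through a median of 4.04 to 6.24, all below the wild-type ones. The means were 13 ± 2.38 and 3.62 ± 2.48, a log2 difference of -1.85 (SE 0.44, limma adjusted p = 1.63e-03). None of the 3 assembled features within 100 kb was called.

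Gm32736, a lincRNA at chr5:106095091-106103547 on the plus strand, held 23.3, 9.41, 13, 13.5 and 12.1 in wild-type 1 to 5. In knockout it ran from 4.15 through a median of 6.06 to 12.5, so the groups overlapped. The means were 14.3 ± 5.3 and 7.05 ± 2.9, a log2 difference of -0.93 (SE 0.32, limma adjusted p = 0.0312). This call was lost under more alternatives than that of any other of the 7 members. It was not made without wild-type 1 (adjusted p = 0.102), wild-type 3 (0.0519), wild-type 4 (0.0565), knockout 3 (0.0741) or knockout 4 (0.0542), and the authors' deposited table gives an adjusted p of 0.0641.

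**Figure D4:**
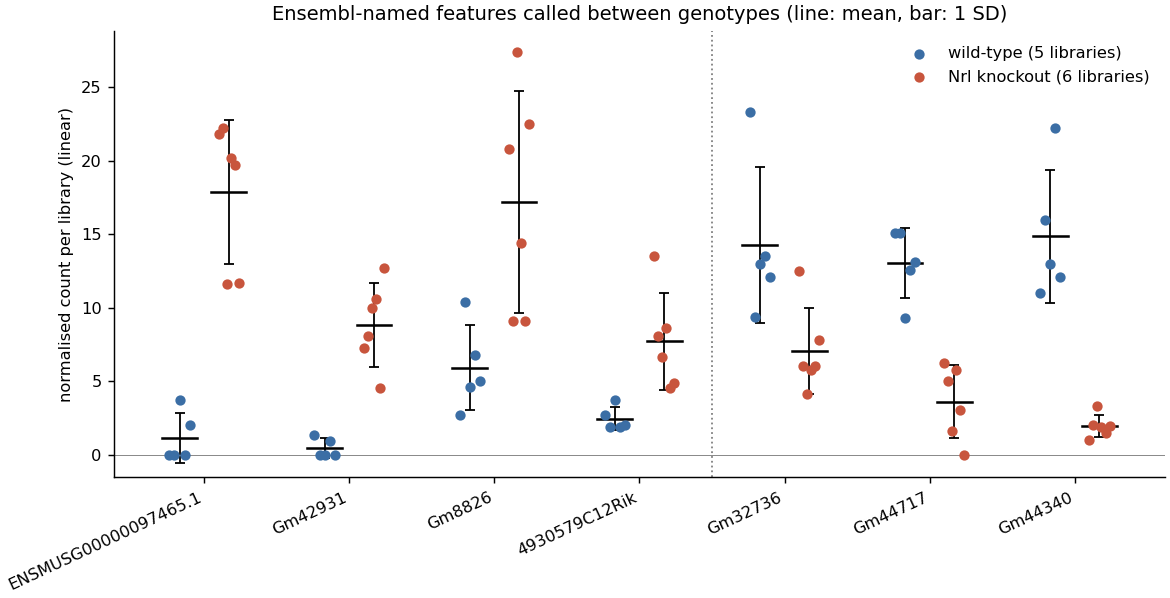
Normalised count in every library (y axis, linear) for the 7 members called between genotypes (x axis), wild-type in blue (5 libraries) and Nrl knockout in red (6 libraries), with the mean (line) and 1 SD (bar); the dotted line separates the 4 that rose from the 3 that fell. Gm8826 and Gm32736 overlap between genotypes, and the highest value is 27.4.

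The most abundant members were not called. Gm14062, a lincRNA of chromosome 2 with the highest mean, held 60.3, 95, 77, 56.1 and 62.5 in wild-type 1 to 5, and 42.5, a median of 51.7 and 62.4 from lowest to highest in knockout. The difference was -0.42 log2 units (SE 0.20, limma adjusted p = 0.128). Znf41-ps, a zinc finger pseudogene of chromosome 4, held 54.1 ± 12.9 and 56.2 ± 3.47, a log2 difference of 0.08 (SE 0.20). It shares 89.6% of its 50-base runs with 33 other genes, 82.8% with Zfp991, so its reads cannot be assigned to it alone. Gm19026, a processed pseudogene that shares 23% of its runs, mostly with Camsap1, held 56.7 ± 22.9 and 39.3 ± 11.4 (-0.47, SE 0.26).

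Gm18012, a processed pseudogene at chr6:59942351-59943308, was the member nearest to the threshold. Its values were 30.2, 25.4, 25.1, 18.4 and 23.2 in wild-type 1 to 5, and ran from 13.5 through a median of 15.8 to 17.6 in knockout. The groups did not overlap, and the difference was -0.60 log2 units (SE 0.24, limma adjusted p = 0.0597). It shared no 50-base run with another gene. Without wild-type 4 the adjusted p was 0.0452, and with each library centred at its median 0.0469.

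The other members among the 10 of highest mean were Gm11701, 4930553P18Rik, Gm830, Gm8228 and Gm45163. Their log2 differences lay between -0.50 for Gm45163 and 0.25 for Gm830, and their genotype groups overlapped. 4930553P18Rik had the smallest difference, with 22.9 ± 6.58 in wild-type and 22.6 ± 5.87 in knockout. Gm830 varied most within genotypes, from 6.05 to 39.8 in wild-type and from 9.13 to 35.4 in knockout.

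Below the mean of 5, 6 members were called in the fit with no filter, and they are named after their values were seen. Gm29590 and Serpina3h were higher; E130120K24Rik, Gm40323, Gm12153 and Gm31897 were lower. A feature this low can be called only with a large difference. Gm29590, a lincRNA at chr13:37508940-37512074 on the plus strand, held 0, 0, 0, 2.9 and 0 in wild-type 1 to 5 and ran from 5.2 to 9.6 in knockout. Its 3 and 48 reads gave a depth-scaled ratio of 12 with an exact 95% counting interval of 3.86 to 60.1, and the log2 difference in that fit was 2.65 (limma adjusted p = 2.1e-05). The groups did not overlap.

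Gm29590 lay among assembled features that rose. Of the 11 within 100 kb, 10 were called higher in the fit with no filter and none lower, against 12% and 9.12% of all features. On the same strand, MSTRG.23806 rose from 3.35 ± 1.94 to 55.6 ± 11 and MSTRG.23810 from 0.193 ± 0.433 to 17.1 ± 5.77. The deposited table lists Rreb1, a zinc finger transcription factor, as higher in this domain. In contrast, Gm40323, E130120K24Rik and Gm12153 fell with few or no such neighbours: E130120K24Rik and Gm12153 had no assembled feature within 100 kb, and of the 16 near Gm40323, 2 were called higher and 1 lower.

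**Figure D5:**
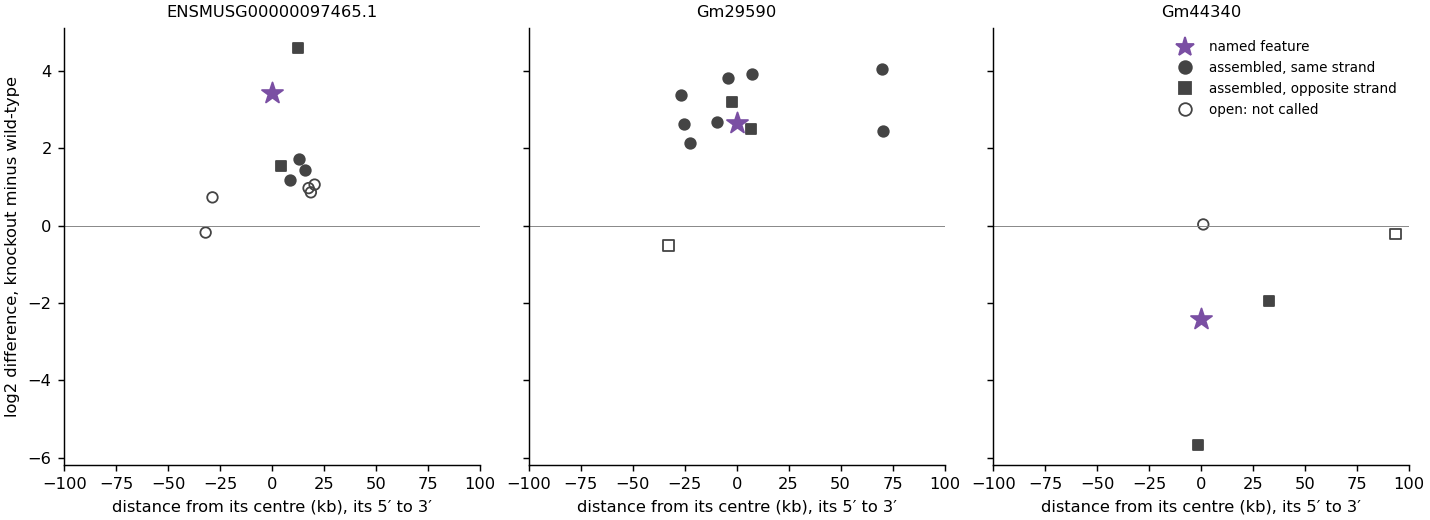
Log2 difference between knockout and wild-type (y axis) of assembled features within 100 kb of 3 members (stars), against distance from the member's centre (x axis, kb, along its own 5′ to 3′ direction); circles are on its strand, squares on the opposite strand, and open symbols are not called in the fit with no filter. Near Gm29590, 10 of 11 features were called higher, near ENSMUSG00000097465.1 5 of 10, and near Gm44340 2 of 4 were called lower. In that fit 12% of all features were called higher and 9.12% lower.

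E130120K24Rik held 5.49, 7.53, 10.2, 3.87 and 2.02 in wild-type 1 to 5 and ran from 0 to 3.12 in knockout (log2 difference -1.82 with no filter, limma adjusted p = 6.65e-03). It lies 8.95 Mb from Nrl on chromosome 14, within the stretch that a knockout allele can carry along from its strain of origin. The labels give no strain, and the part of such a stretch in this value was not tested. Gm17116, 8.59 Mb from Nrl, was not called at 9.24 ± 1.95 and 12.5 ± 5.98. Of the tested assembled features within 10 Mb of Nrl, 118 of 235 (50.2%) were called, against 28.1% of all tested features. Gm40323 went from 5.41 ± 4.93 to 0.504 ± 0.553, with 24 and 3 reads and a depth-scaled ratio of 10.7 (exact 95% counting interval 3.25 to 55.5). Gm12153 went from 4.56 ± 4.51 to 0.475 ± 0.826, with 20 and 3 reads and a ratio of 8.91 (2.64 to 46.8). In both, wild-type 1 was the highest library, at 13.7 and 12.3, the groups overlapped, and the intervals do not take this spread into account. Serpina3h, a pseudogene of the serine protease inhibitor cluster on chromosome 12, went from 1.4 ± 1.72 to 5.21 ± 3.77 and shares 15.8% of its runs with Serpina3i, which the deposited table lists as higher in the domain. The lincRNA Gm31897 went from 6.06 ± 2.22 to 2.45 ± 2.73. Neither Serpina3h nor Gm31897 was called by the authors' deposited table, while the other 4 of these low members were.

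Promoters of 4 of the changed members are shown, since RefSeq gives a start within 500 bp of the listed one for them: first a member above and one below the mean of 5 that were higher, then likewise for lower. Each is 300 bases (250 before to 50 after the RefSeq start, GRCm38.p6), printed 5′ to 3′ on the strand of the gene. The capitals mark TGCTGA, the core of the Maf recognition element that NRL binds, or GGATTA, the core bound by the photoreceptor homeodomain factor CRX, on either strand. The windows are chr9:89177838-89178137 (minus strand), chr13:37508392-37508691, chr5:106094693-106094992 and chr5:125360928-125361227 (plus strand).
4930579C12Rik: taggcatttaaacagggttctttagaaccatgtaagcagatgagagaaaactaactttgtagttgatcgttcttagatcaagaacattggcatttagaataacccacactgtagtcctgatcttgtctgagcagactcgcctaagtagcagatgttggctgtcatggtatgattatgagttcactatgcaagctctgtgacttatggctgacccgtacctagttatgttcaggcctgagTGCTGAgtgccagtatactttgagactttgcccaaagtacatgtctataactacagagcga
Gm29590: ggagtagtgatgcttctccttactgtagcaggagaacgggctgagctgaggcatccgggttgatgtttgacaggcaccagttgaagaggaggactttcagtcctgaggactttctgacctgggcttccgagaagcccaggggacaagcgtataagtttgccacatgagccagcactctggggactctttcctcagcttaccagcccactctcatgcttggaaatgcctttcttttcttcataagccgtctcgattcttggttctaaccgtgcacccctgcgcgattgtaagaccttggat
Gm32736: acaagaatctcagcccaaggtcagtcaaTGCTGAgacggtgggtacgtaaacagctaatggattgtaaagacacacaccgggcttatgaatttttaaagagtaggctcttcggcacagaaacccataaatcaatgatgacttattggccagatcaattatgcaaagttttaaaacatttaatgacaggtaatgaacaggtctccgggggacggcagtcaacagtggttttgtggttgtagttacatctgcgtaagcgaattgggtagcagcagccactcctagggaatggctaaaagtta
Gm40323: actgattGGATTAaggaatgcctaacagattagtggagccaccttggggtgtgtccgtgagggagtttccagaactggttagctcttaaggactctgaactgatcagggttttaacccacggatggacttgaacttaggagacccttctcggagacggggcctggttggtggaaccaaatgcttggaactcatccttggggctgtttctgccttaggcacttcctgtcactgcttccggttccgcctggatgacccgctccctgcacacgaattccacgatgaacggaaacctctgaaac

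The promoters of 4930579C12Rik, which rose, and of Gm32736, which fell, both hold TGCTGA, that of Gm40323 holds GGATTA, and that of Gm29590 holds neither. Of the 52 members with a RefSeq promoter, 34 had a start within 500 bp of the listed one; 12 of these (35.3%) held TGCTGA and 3 (8.82%) GGATTA. Over all 32851 promoters of the same length the shares were 19.5% and 7.06%. Both motifs were searched on both strands, no printed window holds both, and a match is a description of letters only. The window of Gm29590 starts inside the opposite-strand feature MSTRG.23807 (chr13:37508251-37508668), which rose from 0.952 ± 1.34 to 14.3 ± 3.5 (log2 difference 3.20, limma adjusted p = 1.22e-06).

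Few members had a tested assembled feature nearby. Of the 51 uncalled tested members, 16 had a tested assembled feature within 10 kb, and 5 of those 33 features (15.2%) were called, against 28.1% of all tested features. Of the 7 called members 2 had one, ENSMUSG00000097465.1 and Gm44340.

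The deposited table assigns each feature to a chromosomal domain and lists mRNAs called higher or lower there. In domains listing only higher mRNAs, 3 of 13 tested members rose and none fell, against 29.8% and 7.94% of all 5431 tested features in such domains. In domains listing only lower mRNAs none of 5 was called, against 9.07% higher and 25.6% lower of 2989. In domains with both, 1 of 9 fell and none rose, against 14.6% and 16.8% of 3008, and in the 31 with neither 1 rose and 2 fell, against 9.37% and 10.6% of 9967. By the authors' deposited table, 4 of 41 members in domains with only higher mRNAs were higher and 1 lower (21.8% and 5.33% of all features there). In domains with both, 3 of 30 were lower and none higher (9.82% and 11.4%). Of the 71 with neither list 1 was higher and 1 lower (6.21% and 6.88%), and of the 13 with only lower mRNAs none was called (6.67% and 18.6%). These counts are too small to read against their backgrounds. The sources used here do not state how these domains and mRNA lists were made, and no test of this division was made.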

How the data were processed

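The members and gene lists were chosen with earlier results of these data known. Per the labels' protocols, sequencing gave stranded single-end reads of 50 bp. Builds mm9 and mm10 and the tools Cuffdiff, Cufflinks 2.2.1 and TopHat2 2.0.10 are named in the submitters' processing notes, without roles. Strand use in counting and the counting tool are not stated there. The authors deposited 1 signal value per library and feature, a read count divided by a DESeq2 size factor, per the file headers and a table name that gives mm10. The authors also gave their own log2 fold change with its SE, a Wald score, and a p-value before and after adjustment, per the file headers. The table has 36180 lines; 83 features have 2 and were used 1 time. Starts are written counting from 1. The sequence of 1 small RNA member is not reported here.

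Features with a mean of at least 5 were tested with limma 3.58.1 in R 4.3.3 (trend and robust, two-sided) on log2(value + 1), which understates changes of low features, over all 11 libraries with genotype as the term; an adjusted p below 0.05 was a call. Every value was a whole multiple of 1 read (100% within 0.001), and edgeR 4.0.16 and DESeq2 1.42.0 were run on these reads in 9 libraries, because in the other 2 a read was worth close to 1 and the recovery could not be checked; edgeR on whole reads called 3215 features higher and 2518 lower. On simulated data of 21395 features with this comparison's depth, limma recovered 4-fold changes in 59 of 66 features, at 1 false call. It recovered 2-fold changes in 19 of 74 and 1.5-fold changes in 2 of 60. The simulation gave every feature the same spread between libraries beyond counting error. It also changed far fewer features than were called in the data, so these recovery counts do not carry over to this comparison. Counting intervals are exact (Clopper-Pearson), on reads pooled over the libraries of a genotype, and leave out library-to-library spread. The pooled reads include wild-type 5 and knockout 2, the libraries in which the recovery of reads could not be checked. Annotation was GENCODE M21 and RefSeq promoters GRCm38.p6. Members were named by rule: the 10 highest means, up to 12 called members per direction, the 5 uncalled members of highest mean and members of 7 fixed symbol lists. Alternatives were other scalings, pseudocounts, filters, count tests, a replicate block and leaving out each library.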

Additional observations from a re-analysis of the deposited data

Results flagged for a closer look

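Of 34 groups of values checked for a library apart from the rest, 1 was flagged, and chance flags about 1 in 20. In wild-type, Gm24045 stood at 32.9 normalised counts in wild-type 1, against 15.1 to 18.6 in the other wild-type libraries. The gap to the next value was 0.804 of the range. Without wild-type 1 the log2 difference of Gm24045 was 0.74 (limma adjusted p = 0.0502), against 0.54 (limma adjusted p = 0.182) with all libraries.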

How the results depend on the processing

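Of 380 values of named members under the alternatives, 356 kept their direction and their side of the threshold, 9 lost the call (8 of Gm32736, 1 of 4930579C12Rik), 3 gained it (Gm18012) and 12 changed sign, all of members that were called under neither setting. These were 4930553P18Rik (-0.02), at 0.06 with the replicate block and in the same libraries with no block, and at 0.11, 0.03, 0.07 and 0.06 without wild-type 1, wild-type 4, knockout 5 and knockout 6 (lowest without a library -0.12); Gm830 (0.25), at -0.16 with edgeR, -0.22 with DESeq2 and -0.24 with limma on 9 libraries and -0.05 without wild-type 5 (highest 0.58, without wild-type 1); Gm11701 (-0.12), at 0.03 without wild-type 1 (lowest -0.25, without wild-type 4); and Znf41-ps (0.08), at -0.03 without wild-type 4 (highest 0.2, without wild-type 1). The 7 called members were also called with TMM scaling, library centring, either other pseudocount, no filter, and edgeR on the whole reads of 11 libraries, an alternative chosen after seeing the data, as was limma on the 9 libraries of the count tests. At a mean of at least 20, where none of the 7 could be tested, 0 members were higher and 0 lower, and over all features 1722 were higher and 1628 lower. With no filter 7 members were lower. Leaving out each library gave 4 to 5 members higher and 2 to 4 lower. The labels do not say whether equal replicate numbers pair the libraries. The correlations of deviations for numbers 1 to 5 were 0.294, 0.00135, 0.123, 0.0512 and 0.273. Only 1 number correlated best with its own, so these values do not settle the pairing. With the replicate block over numbers 1 to 5, 4 members were higher and 5 lower, against 4 and 3 in the same libraries with no block. The added ones were Gm18012 and Gm18775. Over all features the block gave 3715 higher and 3217 lower, against 3199 and 2521 in the same libraries with no block. The median log2 difference of assembled features was -0.04 with TMM scaling, -0.05 with centring, -0.04 at a mean of at least 20, -0.01 with no filter, 0.0 in limma on 9 libraries and -0.03 to -0.01 without each library; that of members was -0.13 to 0.04 without each library. The cause of these shifts was not tested. Members had a median of 43 reads over 11 libraries, and a member that was not called is not shown to be equal between genotypes.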
